A study of Mus musculus with 6 samples.

Results

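The genes described here encode the initiation and elongation factors of cytosolic translation and proteins named after them, such as kinases, repressors and methyltransferases. They were every row of the count table of this mouse liver series whose name began with Eif1 to Eif6 or with Eef1 or Eef2, apart from Eif2ak3 and Eif4ebp1. This gave 61 of 15454 rows, 52 with Eif names and 9 with Eef names, and each was placed in 1 of 14 complexes or roles. All are called translation factor genes below, although not every 1 of them encodes a factor. Liver RNA came from male C57BL/6 mice, 8 to 10 weeks old, in which 75% of the liver had undergone warm ischemia followed by reperfusion. Mice given vehicle solution supplied 3 livers (I/R, the vehicle livers below, numbered as the I/R replicates). Mice given ginsenoside Rk2, a saponin of ginseng, supplied 3 more (I/R+Rk2, the Rk2 livers, numbered likewise). The study gave Rk2 at a low and a high dose and reports sequencing the high-dose group. Each mouse was dosed 2 days ahead of the operation and again as perfusion began. All 6 livers were injured, and no uninjured liver was analysed here, so the comparison asks only what differed between injured livers with and without Rk2.

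Translation starts when the 40S ribosomal subunit, carrying the initiator tRNA on eIF2, is brought to the capped end of an mRNA. eIF4E binds the cap, eIF4A unwinds the leader, eIF4G joins them, and eIF3 links this assembly to the 40S subunit, which then scans to a start codon under the control of eIF1, eIF1A and eIF5. eIF5B joins the 60S subunit, eEF1 delivers each aminoacyl-tRNA, eEF2 moves the ribosome along and eIF5A helps it through slow peptide bonds. Stress kinases that phosphorylate eIF2, and 4E-BP proteins that hold eIF4E, are the best known brakes on this path. Hepatocytes, which export much of the protein of plasma, have a large translation machinery.

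Total counts ran from 16809613 to 35618074 per library. The libraries held markers of other cells at unequal levels. Of 11 neutrophil markers, 10 were lower with Rk2, and their summed level was 577 to 704 CPM (counts per 1000000 of the scaled library size) with vehicle and 108 to 253 CPM with Rk2. Of 10 monocyte and macrophage markers, 7 were lower, with sums of 399 to 501 and 77.2 to 112 CPM, while Adgre1, Clec4f and Timd4 were not called. Hepatocyte markers went the other way, with 6 of 9 higher and sums of 65760 to 76340 and 101000 to 123500 CPM. Alb made up most of these sums (means of 49230 and 80120 CPM). Only 3 hepatocyte markers were higher without vehicle liver 1, Rk2 liver 2 or Rk2 liver 3 and 4 without vehicle liver 3. Of 5 endothelial markers 2 were higher and 2 lower, and 1 of 5 stellate markers was lower. So was 1 of 4 cholangiocyte markers, a call lost when any liver but Rk2 liver 1 was left out. The 6 listed T, NK and B cell markers summed to at most 1.33 CPM with vehicle and 1.72 CPM with Rk2. The part of these cell markers in the levels below was not tested, and in whole liver fewer cells of a type cannot be told apart from less RNA per cell.

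Translation factor genes were mostly lower with Rk2 where they changed, and most of the changes were modest. Of the 60 members that could be tested, 19 passed an edgeR quasi-likelihood adjusted p below 0.05 (31.7%), against 43.9% of all genes tested. The 16 lower members were 26.7% of those tested, near the 23.7% of all genes, while the 3 higher members (5%) stood against 20.3% of all genes. Eif6 alone also passed a fold change of 2, as 14.6% of all genes did. The median log2 fold change of the 60 members was -0.12, against -0.01 over all genes, and it was below 0 in every alternative. Of the members, 36 lay within 0.25 of no change while 11 lay beyond 0.5. The livers of the groups did not overlap in CPM in 26 members (43.3%), 21 of them lower and 5 higher, against 57.4% of all genes. In 12 of the 14 complexes at least 1 member was called, as the plot of fold changes by complex shows, often beside members that lay close to 0. With 43.9% of all genes called, many groups of this size would hold a called gene, so this count is not particular to these factors.

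**Figure D1:**
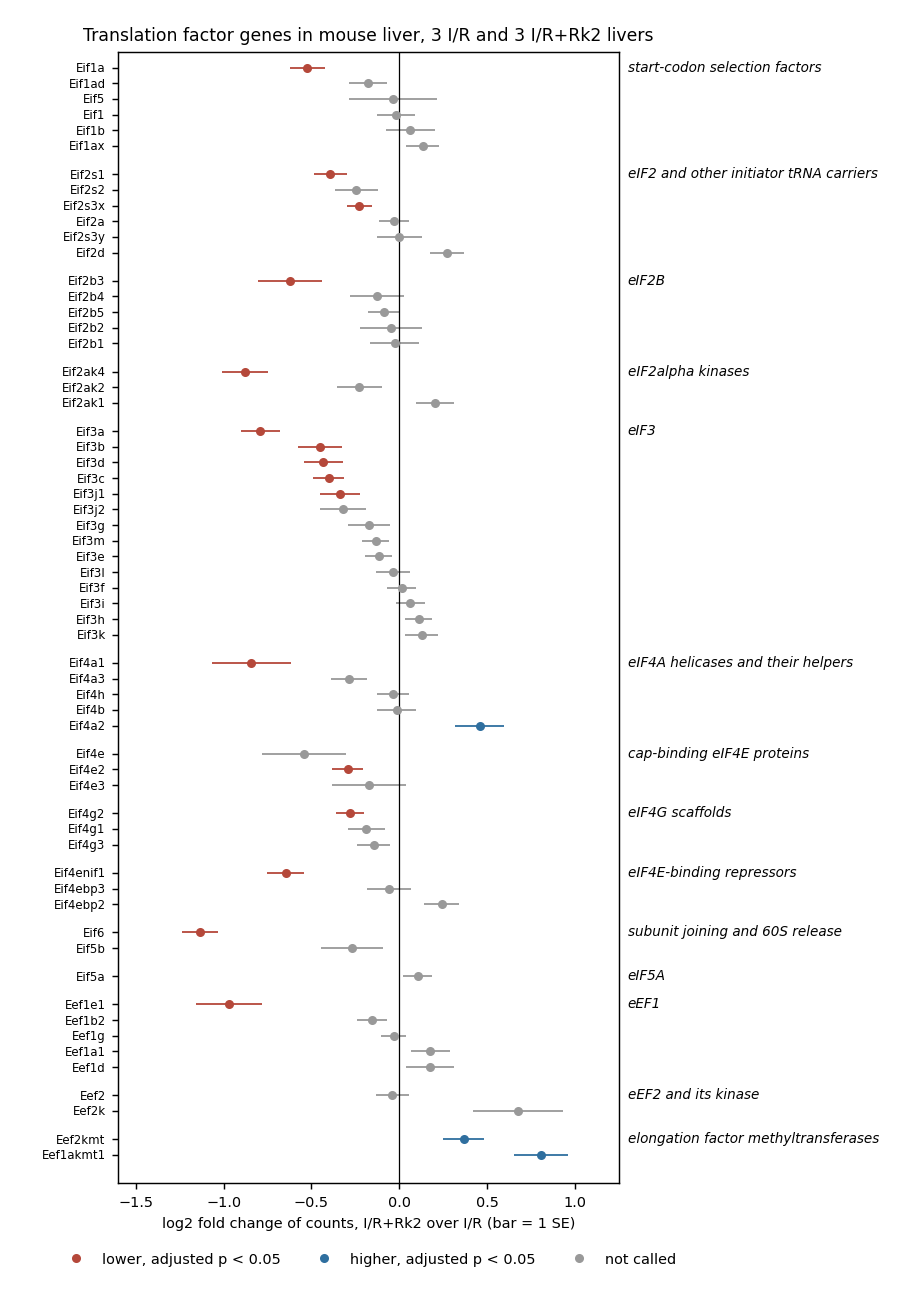
Log2 fold change of counts, treated over vehicle livers, on the horizontal axis for the 60 tested translation factor genes, grouped by complex, with bars of 1 standard error (3 livers a group). Red points (16) were lower and blue points (3) higher at an edgeR adjusted p below 0.05, grey points were not called, and the values ran from -1.14 for Eif6 to 0.81 for Eef1akmt1.

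The number of calls depended on single livers. It was 10 without vehicle liver 1, 10 without vehicle liver 3, 9 without Rk2 liver 2 and 12 without Rk2 liver 3. These were 16.7%, 16.7%, 15% and 20% of the members. Calls over all genes also fell in these fits, from 43.9% to 31.9%, 31.4%, 31.1% and 36.4% in the same order. In all 17 alternatives that were run, 7 members stayed past the threshold in the same direction. Eif6, Eif3a, Eif3c, Eif1a, Eif4enif1 and Eef1e1 were lower in each of them, and Eef1akmt1 was higher. How many of all genes stayed past it was not counted, so the 7 cannot be called particular to these factors. The split between directions moved with the scaling, from 3 higher and 16 lower to 5 and 12 with upper-quartile scaling, 7 and 16 after a transcript length trend was removed, and 1 and 19 when only library size was used, which moved the median of all genes to -0.17.

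Eif6 showed the largest fall among the 60 tested members. Its protein binds the 60S ribosomal subunit, keeps it from joining the 40S subunit too early, and is needed to make 60S subunits. It stood at 93.1, 91.2 and 82.2 CPM with vehicle and 44.3, 40.2 and 36.7 CPM with Rk2, on 598 to 2337 counts a library. Every treated liver lay below every vehicle liver, with a wide gap between the groups. The level was 2.20-fold lower (log2 fold change -1.14, standard error 0.10, edgeR adjusted p = 0.00047), and the adjusted p stayed at or below 0.00368 when any single liver was left out. An antisense transcript, Gm16098, shares exon positions with Eif6 (chromosome 2, 155819832 to 155826925 in GRCm38), and since the strand setting of the counting was not stated, its reads cannot be told apart. Eif5b, the GTPase that joins the subunits, went from 61.3, 38.3 and 58.8 to 46.0, 40.9 and 44.6 CPM, on 727 to 1476 counts, and the groups overlapped (log2 fold change -0.27, standard error 0.18, edgeR adjusted p = 0.253).

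**Figure D2:**
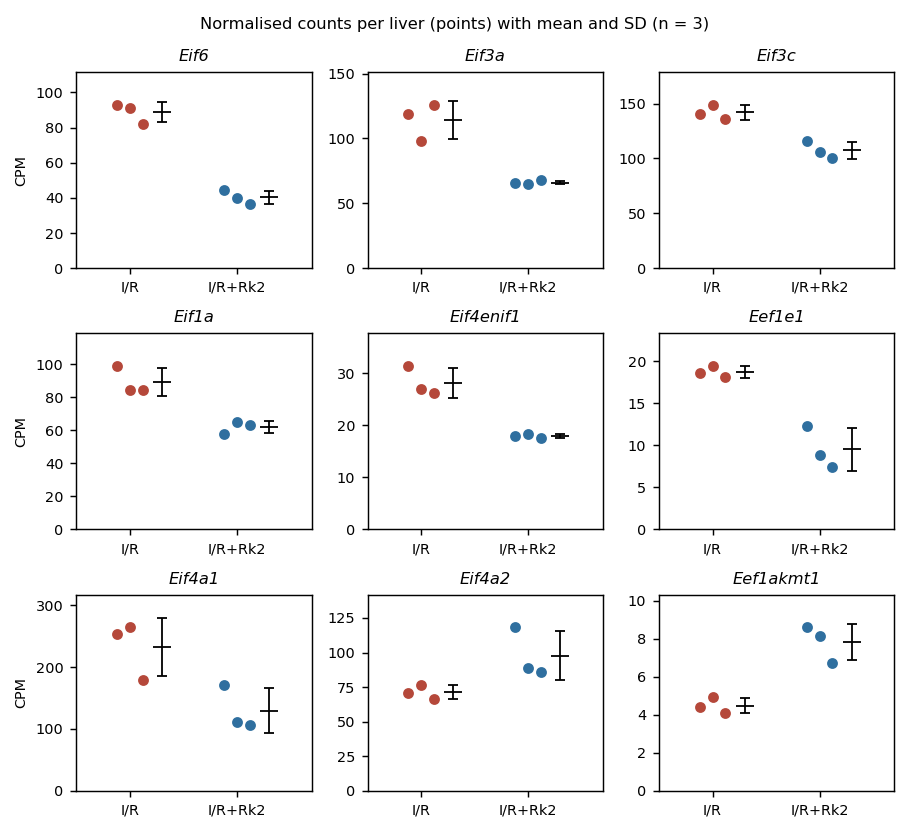
Normalised counts (CPM, vertical axes from 0) of 9 translation factor genes in each I/R liver (red) and I/R+Rk2 liver (blue), with the mean and SD of 3 livers beside the points. The 9 were picked from the called members, and their groups do not overlap, the treated livers lying below in 7 and above in Eif4a2 and Eef1akmt1. Groups did not overlap in 43.3% of the tested members and in 57.4% of all genes.

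Among the factors that select the start codon, 1 of 6 changed. Eif1a, which encodes an eIF1A protein of the scanning 40S subunit, fell from 99.01, 84.4 and 84.2 CPM to 57.9, 64.9 and 63.2 CPM, on 1030 to 2192 counts (log2 fold change -0.52, standard error 0.10, edgeR adjusted p = 0.00567). Its X-linked partner Eif1ax, which encodes the same factor, was at 32.3, 34.6 and 35.1 CPM with vehicle and 35.0, 41.0 and 35.7 CPM with Rk2, on 582 to 1386 counts (0.13 ± 0.10 SE on the log2 scale, edgeR adjusted p = 0.289). The FPKM ratio of the pair, which compares levels per length, was 5.29, 4.39 and 4.15 with vehicle and 2.99, 2.92 and 3.06 with Rk2. The ratios of the groups did not overlap, and an exact permutation test on the log ratio gave the smallest p that 3 against 3 livers allow, 0.1 (two-sided). Mean FPKM of Eif1ax were 6.785 with vehicle and 6.749 with Rk2, so the ratio mostly restates the fall of Eif1a.

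The other start-codon genes were not called, with log2 fold changes from -0.18 to 0.13. Eif1, whose protein guards against starting at the wrong codon, stood at 138, 150 and 153 CPM with vehicle and 147, 162 and 126 CPM with Rk2, on 2060 to 5463 counts. Eif1b, its close relative, stood at 16.8, 14.9 and 14.8 and at 19.2, 15.2 and 14.2 CPM, on 232 to 512 counts. The groups overlapped for both, with log2 fold changes of -0.02 ± 0.11 and 0.06 ± 0.14 (SE) and edgeR adjusted p of 0.905 and 0.739. Eif1ad, an eIF1A domain gene, was at 23.1, 26.7 and 24.6 CPM and at 24.0, 21.6 and 20.1 CPM, on 328 to 729 counts (-0.18 ± 0.11 on the log2 scale, edgeR adjusted p = 0.213).

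eIF2, the GTPase that carries the initiator tRNA, has an alpha, a beta and a gamma subunit, and genes of the alpha and gamma subunits were lower. Eif2s1, the alpha subunit that stress kinases phosphorylate, went from 46.7, 45.4 and 46.4 CPM to 39.0, 33.6 and 33.0 CPM, on 537 to 1165 counts (log2 fold change -0.39, standard error 0.09, edgeR adjusted p = 0.0137). All treated livers lay below all vehicle livers, but the adjusted p was 0.0501 without vehicle liver 3 and 0.0564 without Rk2 liver 2. Eif2s3x, a gamma subunit, went from 65.1, 65.2 and 64.9 to 56.5, 56.1 and 54.1 CPM, on 881 to 1896 counts (-0.23 ± 0.07 SE on the log2 scale, edgeR adjusted p = 0.0386). This call passed in 6 of 17 alternatives, and 34.6% of the gene's 50-base sequences also occur in other annotated genes, nearly all in a processed pseudogene. The beta subunit gene Eif2s2 had a log2 fold change of -0.25 and was not called, nor was Eif2s3y, the Y-linked gamma subunit gene, at 22.1 ± 3.14 and 22.1 ± 1.59 CPM (SD, n = 3).

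Eif2d, which can deliver tRNA to the 40S subunit without eIF2, was at 23.9, 26.6 and 22.2 CPM with vehicle and 29.2, 29.8 and 28.9 CPM with Rk2, on 459 to 1005 counts. Its treated livers all lay above the vehicle ones, yet it missed the threshold (log2 fold change 0.27, standard error 0.10, edgeR adjusted p = 0.0566). Eif2a, another alternative carrier, had a log2 fold change of -0.03.

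eIF2B reloads eIF2 with GTP, and 1 of its 5 subunit genes changed. Eif2b3, the gamma subunit of the catalytic part, fell from 14.6, 15.7 and 15.6 CPM to 12.8, 8.94 and 7.98 CPM, on 130 to 401 counts (log2 fold change -0.62, standard error 0.18, edgeR adjusted p = 0.0298). The treated livers lay below the vehicle livers and spread more widely, and the call passed in 8 of 17 alternatives. The other subunits had log2 fold changes from -0.13 to -0.03. Eif2b5, the catalytic epsilon subunit, was at 40.9, 44.0 and 40.8 CPM with vehicle and 42.7, 37.9 and 37.6 CPM with Rk2, on 613 to 1280 counts (-0.09 ± 0.09 SE, edgeR adjusted p = 0.448). Eif2b4, the delta subunit, was at 28.4, 27.1 and 21.6 and at 26.7, 24.2 and 19.5 CPM, on 318 to 817 counts (-0.13 ± 0.15 SE, edgeR adjusted p = 0.534).

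Of the 3 eIF2alpha kinase genes among the members, 1 changed. The kinase gene Eif2ak3, which is outside the members, was also lower (log2 fold change -0.58, edgeR adjusted p = 0.00587). Eif2ak4 encodes GCN2, the kinase that senses uncharged tRNA, and fell from 15.6, 12.4 and 13.1 CPM to 7.14, 7.96 and 7.18 CPM, on 117 to 328 counts. It was 1.84-fold lower with no overlap of the groups (log2 fold change -0.88, standard error 0.13, edgeR adjusted p = 0.00248), and stayed at an adjusted p of at most 0.0101 with any single liver left out. Only the 3 fits on FPKM missed it. Eif2ak1, the haem-regulated kinase HRI, stood at 41.5, 41.8 and 35.96 CPM with vehicle and 41.6, 50.8 and 45.0 CPM with Rk2, on 732 to 1717 counts (0.21 ± 0.11 SE on the log2 scale, edgeR adjusted p = 0.165). Eif2ak2, the double-stranded RNA sensor PKR, stood at 7.66, 6.75 and 8.21 and at 6.56, 6.60 and 6.14 CPM, on 100 to 223 counts (-0.23 ± 0.13 SE, edgeR adjusted p = 0.194).

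eIF3 is the largest initiation complex, and 5 of its 14 tested subunit genes fell (35.7%, against 23.7% of all genes) and the other 9 were not called. The 5 became 3 without vehicle liver 1 or vehicle liver 3, and 2 without Rk2 liver 2 or Rk2 liver 3. Eif3a, the largest subunit and the scaffold of the complex, went from 119, 97.8 and 126 CPM to 65.5, 64.9 and 67.6 CPM, on 1101 to 3163 counts. The treated livers lay close together and far below the vehicle livers (1.73-fold lower, log2 fold change -0.79, standard error 0.11, edgeR adjusted p = 0.00185). Eif3c, which with Eif3a forms the base of the complex, went from 141, 149 and 136 to 116, 106 and 100 CPM, on 1634 to 3818 counts (-0.40 ± 0.09 SE, edgeR adjusted p = 0.00984). Eif3d, a subunit that can itself bind the cap of some mRNAs, went from 87.1, 93.3 and 86.5 to 75.9, 60.9 and 61.1 CPM, on 995 to 2390 counts (-0.43 ± 0.11 SE, edgeR adjusted p = 0.0170). The groups of Eif3c and Eif3d did not overlap, and Eif3d missed the threshold without vehicle liver 2 (0.0534), Rk2 liver 2 (0.0662) or Rk2 liver 3 (0.0543).

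Eif3b, a further core subunit, was at -0.45 on the log2 scale (edgeR adjusted p = 0.0239) and missed the threshold whenever any liver but Rk2 liver 1 was left out. Eif3j1 had -0.34 (edgeR adjusted p = 0.0458), which was lost when any liver but vehicle liver 2 was left out, and Eif3j2, a copy of it, -0.32 (0.0821). Their coding sequences are identical at 781 of 783 aligned bases and share 732 words of 50 bases, so their reads cannot be divided between them reliably and both values are uncertain. Exons of Eif3j1 also overlap Spg11, and those of Eif3d Gm17638, on the opposite strand. Without this pair 15 members were lower and 3 higher of 58 tested. The other 8 subunit genes (Eif3e, Eif3f, Eif3g, Eif3h, Eif3i, Eif3k, Eif3l and Eif3m) had log2 fold changes from -0.17 to 0.13 and edgeR adjusted p of 0.205 or more. In the sum over all subunit genes, eIF3 transcripts stood at 1080, 1070 and 1094 CPM with vehicle and 979, 905 and 879 CPM with Rk2.

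Of the eIF4A helicase genes, whose products unwind the mRNA leader, 1 fell and 1 rose. Eif4a1 and Eif4a2 encode near-identical helicases, and the DEAD-box codons at their ATP-hydrolysis site are shown to let the likeness of the transcripts be seen. Both stretches are from GENCODE M21 transcripts, read along the mRNA, with the DEAD codons in capitals; they lie in coding exons at chr11:69668704-69668733 (minus strand) and chr16:23110254-23110283 (plus strand) of GRCm38.
Eif4a1: ttcgtactgGATGAAGCAGATgaaatgtta
Eif4a2: ttcgttttgGACGAAGCAGATgaaatgttg
Of these 30 bases 26 are identical, and over the aligned coding sequence 950 of 1218 bases (78%) are, with 0 shared words of 50 bases, so that reads of that length could be assigned to 1 gene or the other. In the whole gene, 28.4% of the words of Eif4a1 and 10.6% of those of Eif4a2 recur in other annotated genes, mostly pseudogenes in the case of Eif4a1.

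Eif4a1 fell from 254, 265 and 179 CPM to 172, 111 and 107 CPM, on 1737 to 6784 counts (1.79-fold lower, log2 fold change -0.84, standard error 0.23, edgeR adjusted p = 0.0210). Eif4a2 rose from 70.7, 76.8 and 66.4 CPM to 118, 89.1 and 86.0 CPM, on 1356 to 3011 counts (1.37-fold higher, log2 fold change 0.46, standard error 0.14, edgeR adjusted p = 0.0324). The groups did not overlap for either gene, but the lowest vehicle liver and the highest Rk2 liver of Eif4a1 were close. Within each liver the FPKM of Eif4a1 was 3.50, 3.41 and 2.75 times that of Eif4a2 with vehicle and 1.53, 1.10 and 1.23 times with Rk2. The FPKM of Eif4a1 lay wholly lower with Rk2 and those of Eif4a2 wholly higher, so the ratio had to separate the groups. Its two-sided exact permutation p of 0.1, the smallest that this design can give, was therefore fixed in advance and adds no support. Of 9 such FPKM ratios tested between paralogs or partners, 7 reached that p. As ratios of counts, Eif4a1 over Eif4a2, Eif1a over Eif1ax and Eef1a1 over Eef2 still separated the groups. Those of Eif4g1 over Eif4g3, Eif4ebp2 over Eif4e, Eif2s3x over Eif2s3y and Eef2 over Eef2k overlapped, so the number depends on the unit.

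Either call was sensitive to the data used. Eif4a1 missed the threshold without vehicle liver 1 (0.0683), vehicle liver 2 (0.0642), Rk2 liver 2 (0.0737) or Rk2 liver 3 (0.0654), with log2 fold changes of -0.71 or below throughout. Eif4a2 missed it without vehicle liver 1 (0.0797) or 3 (0.113), with library size alone and in the 3 fits on FPKM, and it shares exon positions with Rfc4 on the opposite strand and with small RNA genes on its own. Eif4a3, a helicase of the exon junction complex, was at 40.2, 39.8 and 36.4 CPM with vehicle and 35.9, 29.6 and 30.0 CPM with Rk2, on 489 to 1020 counts (-0.29 ± 0.11 SE, edgeR adjusted p = 0.0621). The helper genes Eif4b and Eif4h, whose proteins stimulate the helicase, had log2 fold changes of -0.01 and -0.04.

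**Figure D3:**
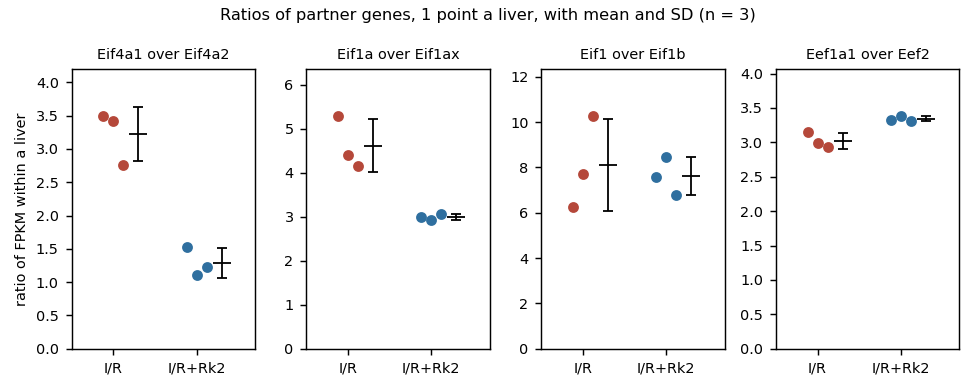
Ratio of FPKM between partner genes within each I/R liver (red) and I/R+Rk2 liver (blue), vertical axes from 0, with the mean and SD of 3 livers. Eif4a1 over Eif4a2 went from 2.75 to 3.50 in I/R to 1.10 to 1.53 in I/R+Rk2 and Eif1a over Eif1ax from 4.15 to 5.29 to 2.92 to 3.06, while Eif1 over Eif1b overlapped and Eef1a1 over Eef2 was 2.93 to 3.15 and 3.32 to 3.39.

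Of the cap-binding proteins, Eif4e2 was called. It encodes 4EHP, which binds the cap without recruiting eIF4G, and went from 55.9, 60.7 and 53.0 to 46.6, 48.2 and 43.5 CPM, on 709 to 1629 counts (-0.29 ± 0.09 SE on the log2 scale, edgeR adjusted p = 0.0329). The call passed in 10 of 17 alternatives and was lost, at up to 0.102, when any liver but Rk2 liver 1 was left out. Eif4e, the main cap-binding factor, was at 67.1, 33.2 and 57.4 CPM with vehicle and 39.7, 33.9 and 34.8 CPM with Rk2, on 566 to 1440 counts. Of the vehicle livers, liver 2 lay below all the treated livers while the others lay above them, and the gene was not called (log2 fold change -0.54, standard error 0.24, edgeR adjusted p = 0.106). Without that liver it was at -0.78 on the log2 scale, with an edgeR adjusted p of 0.00678. Eif4e3 was the least abundant tested member, at 2.29, 2.85 and 2.59 and at 2.52, 1.92 and 2.46 CPM, on 40 to 73 counts (-0.17 ± 0.21 SE, edgeR adjusted p = 0.532). Eif4e1b, an oocyte form, was listed at 0 FPKM in all 6 livers.

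All 3 eIF4G scaffold genes had log2 fold changes below 0, and 1 was called. Eif4g2, also known as DAP5, which lacks the eIF4E-binding part, went from 468, 463 and 461 CPM to 370, 375 and 401 CPM, on 6528 to 12669 counts (-0.28 ± 0.08 SE, edgeR adjusted p = 0.0255). The vehicle livers were nearly equal and all above the treated livers, yet the adjusted p was 0.0538 to 0.0823 when any liver but Rk2 liver 3 was left out and 0.051 with upper-quartile scaling. After removal of the length trend the log2 fold change was 0.03. Eif4g1, the main scaffold, was at 346, 381 and 336 and at 347, 299 and 287 CPM, on 4679 to 10087 counts (-0.19 ± 0.10 SE, edgeR adjusted p = 0.180). Eif4g3 was at 28.5, 31.9 and 33.1 and at 27.4, 28.0 and 29.2 CPM, on 475 to 947 counts (-0.15 ± 0.09 SE, edgeR adjusted p = 0.233).

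Of the eIF4E-binding repressors, Eif4enif1 was lower. It encodes 4E-T, which carries eIF4E to the nucleus and to processing bodies, and went from 31.4, 26.9 and 26.1 CPM to 17.9, 18.4 and 17.6 CPM, on 287 to 690 counts. It was 1.57-fold lower with tightly grouped treated livers (log2 fold change -0.65, standard error 0.10, edgeR adjusted p = 0.00316). Eif4ebp2, a 4E-BP, was at 152, 174 and 154 CPM with vehicle and 173, 188 and 206 CPM with Rk2, on 2926 to 6366 counts (0.24 ± 0.10 SE, edgeR adjusted p = 0.0850). Eif4ebp3, its paralog, was at 16.4, 20.8 and 16.7 and at 17.6, 16.3 and 17.8 CPM, on 290 to 552 counts (-0.06 ± 0.12 SE, edgeR adjusted p = 0.728), and 65.5% of its sequence words recur in 1 overlapping annotated gene.

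The most abundant members, Eef1a1 and Eef2, were not called. Eef1a1, which delivers aminoacyl-tRNA to the ribosome, had 2019, 2250 and 2416 CPM with vehicle and 2403, 2582 and 2574 CPM with Rk2, on 38733 to 87208 counts. The groups overlapped (log2 fold change 0.18, standard error 0.11, edgeR adjusted p = 0.221), and per length the gene led the family at 1307 and 1265 FPKM. Of the 50-base words of Eef1a1, 39.4% recur in 20 other annotated genes, so its level may depend on how such reads were assigned. Eef1a2, its form of muscle and neurons, was listed at 0 FPKM in all 6 livers. Eef2, the translocase, had 1275, 1313 and 1439 CPM with vehicle and 1252, 1325 and 1344 CPM with Rk2, on 21881 to 44758 counts (-0.04 ± 0.10 SE, edgeR adjusted p = 0.761), and 433 and 379 FPKM.

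Eef1e1 was the only called member of the eEF1 group. It encodes AIMP3, a protein of the multi-aminoacyl-tRNA synthetase complex with likeness to eEF1 subunits, and fell from 18.6, 19.5 and 18.1 CPM to 12.4, 8.82 and 7.43 CPM, on 121 to 499 counts. The level was 1.96-fold lower, and the groups did not overlap (log2 fold change -0.97, standard error 0.19, edgeR adjusted p = 0.00619). The exchange-factor subunit gene Eef1b2 was at 128, 129 and 123 and at 122, 114 and 105 CPM, on 1705 to 3864 counts (-0.15 ± 0.09 SE, edgeR adjusted p = 0.182). Eef1d and Eef1g, further subunits of that exchange factor, had log2 fold changes of 0.18 and -0.03, and 40.2% of the words of Eef1g recur in 1 pseudogene.

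Eef2k, the kinase that inactivates eEF2, was at 5.27, 6.75 and 4.90 CPM with vehicle and 12.2, 8.50 and 6.33 CPM with Rk2, on 101 to 289 counts. The lowest treated liver lay inside the range of the vehicle livers, and the gene was not called (log2 fold change 0.68, standard error 0.25, edgeR adjusted p = 0.0657), although it passed without Rk2 liver 3 (0.0265). Both measured methyltransferases of elongation factors rose, and the other 4 listed had no row in the count table used here. Eef1akmt1, which methylates eEF1A on a lysine, went from 4.43, 4.92 and 4.11 CPM to 8.62, 8.14 and 6.75 CPM, on 85 to 275 counts (1.75-fold higher, log2 fold change 0.81, standard error 0.15, edgeR adjusted p = 0.00580). Eef2kmt, which methylates eEF2, went from 7.87, 9.02 and 8.13 to 10.8, 10.1 and 11.4 CPM, on 151 to 342 counts (0.37 ± 0.12 SE, edgeR adjusted p = 0.0386), passed in 4 of 17 alternatives and shares exon positions with Alg1 on the opposite strand.

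Eif5a, which helps the ribosome through difficult peptide bonds and is the only known protein to carry hypusine along with its paralog, was at 233, 263 and 242 CPM with vehicle and 272, 259 and 262 CPM with Rk2, on 4270 to 8759 counts (0.11 ± 0.08 SE, edgeR adjusted p = 0.333). The paralog Eif5a2 had 4, 14 and 13 counts with vehicle and 0, 7 and 0 counts with Rk2, 0.208, 0.546 and 0.518 against 0, 0.207 and 0 CPM, and did not pass the filter on low counts. It was the only member left without a test.

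Added together, the 61 genes took 0.895%, 0.831% and 0.839% of a library's counts with vehicle and 0.764%, 0.744% and 0.717% with Rk2, so every treated liver lay below every vehicle liver in this share. Eef1a1 alone held 0.230% to 0.245% in each group's livers. Without Eef1a1 and Eef2 the share was 0.478% ± 0.037 with vehicle and 0.380% ± 0.025 with Rk2 (SD, n = 3). These shares are of all counts, before the scaling that the CPM values use, and on that scale the sums overlapped, at 7846, 8132 and 8287 CPM with vehicle and 7835, 7849 and 7840 CPM with Rk2.

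A readout that the gene counts do not carry is which transcripts they came from. Dividing a gene's counts by its FPKM gives a value proportional to the mean length of the transcripts that StringTie credited, and 595 genes with a single annotated transcript were used to turn it into bases. This readout was chosen after the counts and FPKM of some members had been seen to differ, and its limit of 1.2 times was also set after the members' values were seen, so the share below is a description with no test. A difference of more than 1.2 times with no overlap between the groups was found in 6 of 60 members (10%) and in 3.39% of all genes with a value. Transcripts were longer with Rk2 for Eif2b4, Eif4e, Eif5, Eif4g3 and Eef1b2 and shorter for Eif2b3.

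Eif2b4 differed most, with a mean transcript length of 767, 764 and 908 bases with vehicle and 1470, 1546 and 1584 bases with Rk2. Its counts hardly moved (log2 fold change -0.13) while limma on log2(FPKM + 1) gave -1.15 (adjusted p = 0.00504). Eif4e had 2785, 2156 and 2927 bases with vehicle and 3988, 4146 and 3613 bases with Rk2, with -1.14 on the log2(FPKM + 1) scale (limma adjusted p = 0.00275). Eif5, whose protein makes eIF2 hydrolyse its GTP at the start codon, had 2048, 1715 and 1627 and then 2610, 2239 and 3049 bases. Its CPM was 133, 94.1 and 103 with vehicle and 108, 71.8 and 143 with Rk2, and its log2 fold change on counts was -0.04.

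Eif4g3 had 4007, 4410 and 4622 bases with vehicle and 5617, 6497 and 5789 bases with Rk2. Eef1b2 had 1058, 745 and 763 and then 1080, 1138 and 1175 bases, where vehicle liver 1 lay just under the treated livers. Eif2b3 went the other way, from 1957, 1790 and 1969 to 1603, 1722 and 1119 bases. All 6 genes had lower means with Rk2 in both units, and the size of a change has to be read with the unit, since counts rise with transcript length and FPKM do not. The lengths are StringTie's estimates from short reads, and exons of Eif2b4 overlap Snx17, and those of Eef1b2 Ndufs1, on the opposite strand.

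**Figure D4:**
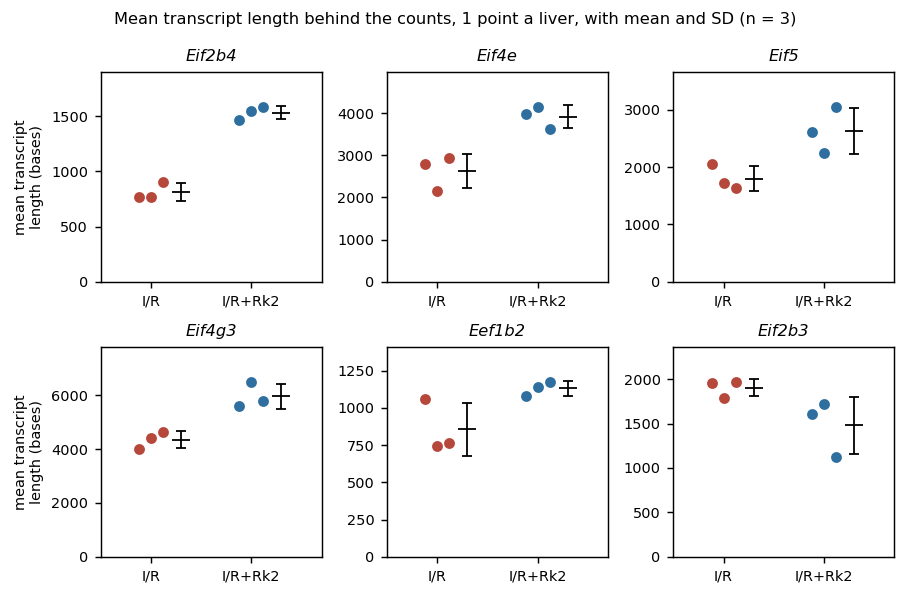
Mean length in bases of the transcripts behind the counts of 6 translation factor genes, by liver (I/R red, I/R+Rk2 blue, vertical axes from 0), with the mean and SD of 3 livers. The groups do not overlap, Eif2b4 going from 813 ± 82.1 to 1534 ± 58.0 bases and Eif2b3 from 1905 ± 100.3 to 1481 ± 319.5 bases.

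Promoters of the members were searched for short motifs in the RefSeq table of GRCm38.p6, which holds 250 bases before and 50 after each annotated start. It matched 48 of the 61 genes with 63 promoters. The E-box CACGTG, the palindrome bound by MYC and related factors, occurred in 12 of the 48 genes and in 22.2% of their promoters, against 7.15% of all 32851 promoters. Matches upstream of the start are shown for genes of successive steps, each as 30 bases read along the gene with the E-box in capitals, to show that the flanking letters differ from gene to gene.
Eif4a1: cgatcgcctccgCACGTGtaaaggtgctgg
Eif4e: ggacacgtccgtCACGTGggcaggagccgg
Eif4g1: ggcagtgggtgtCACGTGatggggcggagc
Eif5a: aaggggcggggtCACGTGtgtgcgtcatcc
Eef2: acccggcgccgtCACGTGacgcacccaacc
Eef2k: cccggggacggcCACGTGagcccgggcgtg
They lie at chr11:69672595-69672624 (minus strand), chr3:138527192-138527221 (plus), chr16:20672661-20672690 (plus), chr11:69921443-69921472 (minus), chr10:81176576-81176605 (plus) and chr7:120842788-120842817 (plus). The E-box began 189 bases before the annotated start in Eif4a1, 64 in Eif4e, 54 in Eif4g1, 74 in Eif5a, 43 in Eef2 and 31 in Eef2k.

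Of the 12 genes with an E-box, 2 were lower (Eif3a and Eif4a1), 9 were not called and Eif5a2 was not tested. No E-box match was found for Eif4a2, nor for most of the 48 matched genes, and any link to the changes was not tested. The ETS motif CCGGAAGT was found in 9 of the 48 genes (17.5% of their promoters, against 3.89% of all), and the YY1 motif AAGATGGCG in 3 (4.76% against 1.4%). The start of a terminal oligopyrimidine tract, a C followed by at least 4 pyrimidines at the annotated first base, was met by 2 genes, Eif2s3x and Eif3f (3.17% against 2.51%). A start annotated even slightly off the true one fails this rule, so these shares cannot show how many genes carry such a tract. The other 4 motifs searched were the TATA box TATAAA (7.94% against 13.6%), the ATF4 composite element TGATGNAAN (3.17% against 3.95%), the cAMP response element TGACGTCA (1.59% against 1.79%) and the palindromic NRF1 motif (1.59% against 0.971%). Matches on both strands were counted, and a match in letters is not evidence of binding.

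Genes of the neighbouring translation steps were followed in lists. Of 77 tested cytosolic ribosomal protein genes, 13 were higher and 1 lower, with a median log2 fold change of 0.12. That direction hung on the scaling, since the median was -0.05 with library size alone (1 higher, 3 lower), -0.06 on log2(FPKM + 1) and -0.14 after the length trend was removed (1 higher, 21 lower). The 13 higher also became 2 without Rk2 liver 2, 7, 6 and 8 without vehicle liver 1, 2 and 3, and 9 without Rk2 liver 3. Of the 9 factors of mitochondrial translation, 5 were higher and the others were not called (median 0.27), and Gfm2, a mitochondrial ribosome recycling factor, had the smallest p (log2 fold change 0.47, edgeR adjusted p = 0.00979). With library size alone their median was 0.11 and edgeR called 0, with 1 higher at an unadjusted p under 0.05, and the calls ranged from 1 to 4 when 1 liver was left out. On log2(FPKM + 1) their median was 0.12 and limma called 1 higher. With these lists set beside the 60 factors (median -0.12, 3 higher and 16 lower), the plot of called shares shows each against all genes, of which 20.3% were higher and 23.7% lower.

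Of 5 poly(A)-binding proteins and partners 2 fell, and Pabpc1, which coats the mRNA tail, went from 229 ± 0.92 to 145 ± 9.29 CPM (SD, n = 3; log2 fold change -0.66, edgeR adjusted p = 0.00126). Of 6 termination and recycling genes 3 were lower and 1 higher: Etf1, the release factor that reads stop codons, was at -0.84 on the log2 scale (edgeR adjusted p = 0.000751), and Eefsec, the selenocysteine elongation factor, 0.63 (0.00214). The 3 lower became 1 without vehicle liver 1, vehicle liver 3 or Rk2 liver 2 and after removal of the length trend, and 2 without vehicle liver 2. Of 6 start-site helpers 2 were lower, led by the helicase gene Ddx3x (-0.78, edgeR adjusted p = 0.000737).

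Among 12 regulators of initiation, 5 were lower and 1 higher, but 3 were lower without vehicle liver 2, vehicle liver 3 or any 1 Rk2 liver, and 3 were higher after removal of the length trend. The higher gene was Pdcd4, whose protein binds and blocks eIF4A, at 43.6, 52.3 and 52.4 CPM with vehicle and 83.4, 105 and 106 CPM with Rk2 (log2 fold change 0.99, standard error 0.13, edgeR adjusted p = 0.00146). Eif4ebp1, another 4E-BP gene, fell (-0.67, edgeR adjusted p = 0.00179), as did Ppp1r15b, a subunit of the eIF2alpha phosphatase (-0.48, 0.00371). Of 5 genes of hypusine and polyamine synthesis 1 was lower, Odc1, the first enzyme of the polyamine path (-1.01, edgeR adjusted p = 0.00334). Of 14 genes listed for ATF4, the factor translated when eIF2 is phosphorylated, 8 were lower and 1 higher (median -0.91). Slc7a11, a cystine transporter, was at -2.51 (edgeR adjusted p = 0.000265). The list holds Atf4 itself beside its targets. Atf4 (-0.293), Ddit3 (-0.135), Trib3 (-0.138), Atf3 (-0.295) and Vldlr (-0.816) were not called.

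**Figure D5:**
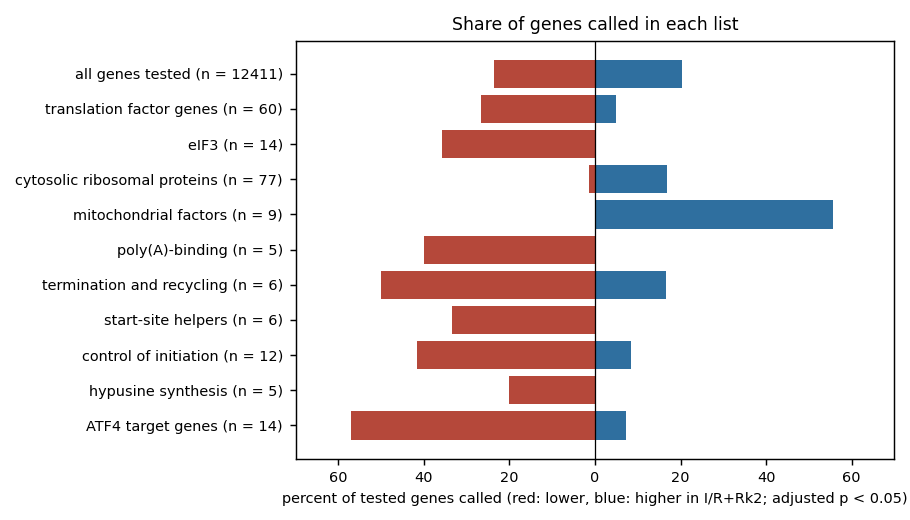
Percent of the tested genes of each list called lower (red, to the left) or higher (blue, to the right) in I/R+Rk2 at an edgeR adjusted p below 0.05, with the number tested in brackets. Translation factor genes stood at 26.7% lower and 5% higher, all genes at 23.7% and 20.3%, and mitochondrial factors at 0% and 55.6%.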

How the data were processed

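RNA of 6 mouse livers (3 I/R, 3 I/R+Rk2) was sequenced from MGI libraries. The submitters' processing notes name the build mm10, FastQC 0.11.5, HISAT2 2.2.1 and StringTie 1.3.3, and the study's methods SAMtools and DESeq2. Annotation and strand setting are not given in the sources used here. The authors deposited whole-number counts per gene, and FPKM, which are scaled for transcript length and depth. For single-transcript genes with 1 to 20 counts, the value implied by FPKM matched the count after rounding up in 76.9% to 81.4% of genes a library, so low counts look like rounded-up estimates.

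For the counts, edgeR 4.0.16 was used under R 4.3.3: filterByExpr (12411 of 15454 genes kept), TMM scaling, quasi-likelihood F test without covariates, Benjamini-Hochberg adjustment over all genes tested. The call limit was an adjusted p under 0.05, to which the study added a fold change over 2. Log2 fold changes divide I/R+Rk2 by I/R, and the standard error (SE) is the absolute log2 fold change divided by the square root of F. Each library was a separate liver. The script was tested on simulated data. Alternatives (17) were other scalings and filters, DESeq2 1.42.0, limma 3.58.1 on log2(FPKM + 1) and log2(FPKM + 0.1) for genes whose mean FPKM reached 1, removal of a transcript length trend, a replicate block, and each liver left out.

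CPM per library and the range of counts were given for the 3 members of each complex with the smallest p, members past the fold limit and for paralog pairs, and at most 3 genes were named from any other list. Eif5, Eif3b, Eif3j1, Eif2ak3, the uncalled genes of the ATF4 list and other genes outside this rule were named after their values were seen. The members and all lists were chosen with earlier results of these data known. Shared sequence was measured with 50-base words over GENCODE M21 transcripts, and mean transcript length used genes with at least 20 counts in every library, scaled with single-transcript genes of at least 100 counts. Protein sequences were not used here.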

Additional observations from a re-analysis of the deposited data

How the results depend on the processing

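Against 19 called members (3 higher, 16 lower, 1 past a fold change of 2, median log2 fold change -0.123), upper-quartile scaling gave 5 higher and a median of -0.0703, and library size alone 1 higher, 4 past the fold limit and a median of -0.284. Removal of the length trend gave 7 higher. In limma on log2(FPKM + 1), log2(FPKM + 0.1) and log2(FPKM + 1) without a filter, 1 was higher and 5 passed the fold limit in each, with medians of -0.27, -0.277 and -0.266. With 1 liver left out, the members called ran from 9 to 18, higher from 1 to 4, lower from 7 to 16, past the fold limit from 1 to 3 and the median from -0.163 to -0.0923. The counts of 9 to 12 came without I/R replicate 1 (10), I/R replicate 3 (10), I/R+Rk2 replicate 2 (9) and I/R+Rk2 replicate 3 (12). Of all genes, 31.9%, 31.4%, 31.1% and 36.4% were called in these fits, against 43.9% with all livers. The cause of these shifts was not tested. With a replicate block 16 were called, 2 higher and 14 lower, 2 of them past the fold limit. Deviations of same-numbered libraries correlated at -0.0615, -0.00212 and -0.0649. These values gave no sign that the numbers pair the livers, but with 3 livers a group they cannot exclude it.

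Of the 60 tested members, 24 changed sign under at least 1 alternative, none of them past the threshold, and of these only Eif4g2 had been called. For 12 of the 24, the sign-changed values lay between -0.155 and 0.117. The other 12 were among 42 genes followed singly, where 33 of 712 values changed sign. With upper-quartile scaling the log2 fold change was 0.0337 for Eif1, 0.0182 for Eif5 and 0.0133 for Eef2. With library size alone it was -0.0257 for Eif1ax, -0.098 for Eif1b and -0.0534 for Eif5a. After removal of the length trend it was -0.172 for Eif1b, 0.105 for Eif5, 0.03 for Eif4g1, 0.0305 for Eif4g2, 0.167 for Eif4g3, 0.0483 for Eif5b, -0.0642 for Eif5a and 0.00437 for Eef2. On log2(FPKM + 1), with or without the filter, it was -0.00774 for Eif1ax, -0.0981 for Eif1b, -0.00508 for Eif5a and -0.0454 for Eef1a1, and on log2(FPKM + 0.1) -0.0089, -0.104, -0.0051 and -0.0454. Sign changes with 1 liver left out fell in Eif1 (-0.101 to 0.0767), Eif1b (-0.0835 to 0.15), Eif4ebp3 (-0.113 to 0.062), Eif5 (-0.29 to 0.189) and Eef2 (-0.0652 to 0.011). Depth limited Eif4e3, with 40 to 73 counts a library, and Eif5a2, with 0 to 14, the most.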
